A study of Mus musculus with 9 samples.

Results

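The regions described here are stretches of mouse heart chromatin listed as single regions of NR4A2 ChIP signal of at least 2000 bp. They were taken from the deposited table of regions by their length alone, and 255 of 16884 regions (1.51%) met that limit. The sources used here do not say how neighbouring stretches were joined into 1 region, so lengths and the number of regions per gene also depend on that unknown step. In chromatin immunoprecipitation with sequencing (ChIP-seq), an antibody pulls down DNA bound to a protein, and the reads that pile up at a place measure how much of that DNA was recovered. The signal was measured in heart ventricle of 3 Nr4a2-icTg mice and 3 control littermates. The Nr4a2-icTg mice carry a conditional Nr4a2 knock-in at the ROSA26 locus together with Myh6-cre/Esr1*, a tamoxifen-inducible Cre recombinase driven by a cardiomyocyte promoter. The controls carry the inducible Cre (αMHC-MerCreMer), so both groups share the Cre, and both are described as given a single intraperitoneal dose of tamoxifen at 40 mg/kg at 8 to 9 weeks of age and studied at day 3. The antibody was clone 9D12, and fly chromatin with a fly H2Av antibody was added to each reaction as a spike-in. Of the 9 samples in the series, these 6 were used, and 3 (an antibody test ChIP, its input and a pooled input) were not used here, so signal is not set against input.

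NR4A2 is an orphan nuclear receptor of the NR4A family. It is an early-response transcription factor that is active without a known natural ligand, and as a monomer it binds the NBRE, a nuclear receptor half-site with an added AA at its front. Most binding sites of a sequence-specific factor give short ChIP regions. Regions that run over several kilobases lie, in many ChIP data sets, over highly transcribed or densely occupied genes, and in heart such genes include those of the contractile apparatus.

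The long regions included host genes of heart microRNAs, small RNAs that repress messenger RNAs through their seed, bases 2 to 8. In 6 long regions lay 11 annotated mature microRNAs from 7 hairpins. The following are shown because they lie in 4 of the 9 longest regions. They are RefSeq mature sequences (GRCm38.p6), 5′ to 3′, with the seed in capitals.
mmu-miR-208a-3p: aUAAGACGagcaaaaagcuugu
mmu-miR-208b-3p: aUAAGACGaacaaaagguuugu
mmu-miR-1a-1-5p: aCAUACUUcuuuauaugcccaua
mmu-miR-126a-3p: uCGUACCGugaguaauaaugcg
The 208a and 208b microRNAs share the seed UAAGACG and lie in the 2 longest regions, at Myh6 and Myh7, which were not called different. The miR-1a-1 region was lower in NR4A2 hearts, and the miR-126a region, inside Egfl7, was not called.

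Long regions also covered promoters, and 167 RefSeq promoter windows (GRCm38.p6, from 250 bases before to 50 bases after a listed start) lay wholly inside them. The NBRE, AAAGGTCA on either strand, was in 0 of the 167, in 50 of 3930 windows inside shorter regions (1.27%) and in 495 of all 32851 windows (1.51%). The shorter half-site AGGTCA, which every NBRE contains, was searched for after that count was seen. On either strand it was in 33 of the 167 windows (19.8%), in 10.6% of windows inside shorter regions and in 16.3% of all windows. Windows of 1 gene can overlap and share a match, and counted per gene it was in 25 of 131 genes with a window inside a long region (19.1%), in 11.1% of genes with one inside a shorter region and in 18.1% of all genes. By window it was in 6 of 18 windows inside long regions with higher signal, 10 of 23 inside those with lower signal and 17 of 126 (13.5%) inside uncalled ones, and by gene in 5 of 15, 7 of 17 and 13 of 99. The rest of each region was not searched, so these counts are for promoter windows only. A match is a string of letters, not a measured site.
The 4 windows below were chosen after the values were seen because they lie in long regions that changed. Capitals mark AGGTCA or its reverse complement TGACCT.
Eno3 (chr11:70656926-70657225, plus strand, higher): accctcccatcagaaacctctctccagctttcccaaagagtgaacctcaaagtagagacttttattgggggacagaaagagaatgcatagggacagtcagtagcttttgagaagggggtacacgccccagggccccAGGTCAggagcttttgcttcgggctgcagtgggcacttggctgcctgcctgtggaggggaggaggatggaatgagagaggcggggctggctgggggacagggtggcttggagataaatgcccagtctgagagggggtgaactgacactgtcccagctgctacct
Perm1 (chr4:156215677-156215976, plus strand, higher): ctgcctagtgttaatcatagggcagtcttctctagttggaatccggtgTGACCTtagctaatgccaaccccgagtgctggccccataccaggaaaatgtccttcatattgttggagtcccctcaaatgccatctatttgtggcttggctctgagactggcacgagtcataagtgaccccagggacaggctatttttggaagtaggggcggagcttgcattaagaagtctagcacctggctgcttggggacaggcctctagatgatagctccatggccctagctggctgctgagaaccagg
Mb (chr15:77022738-77023037, minus strand, lower): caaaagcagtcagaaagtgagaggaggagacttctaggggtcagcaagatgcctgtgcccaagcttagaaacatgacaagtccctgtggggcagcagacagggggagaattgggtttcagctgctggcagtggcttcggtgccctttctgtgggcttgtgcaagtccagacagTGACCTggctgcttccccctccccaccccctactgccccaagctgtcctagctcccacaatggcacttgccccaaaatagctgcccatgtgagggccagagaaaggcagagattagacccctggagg
Fabp3 (chr4:130308488-130308787, plus strand, lower): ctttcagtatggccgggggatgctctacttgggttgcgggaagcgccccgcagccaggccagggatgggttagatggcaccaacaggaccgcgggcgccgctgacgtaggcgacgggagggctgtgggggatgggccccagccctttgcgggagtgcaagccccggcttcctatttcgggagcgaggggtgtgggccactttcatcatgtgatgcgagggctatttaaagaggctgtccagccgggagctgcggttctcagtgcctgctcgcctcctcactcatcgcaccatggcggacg
The Eno3, Perm1 and Mb windows each hold 1 match and the Fabp3 window holds none.

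The 255 long regions measured 2004 to 34918 bp, with a median of 2917 bp and an interquartile range of 2291 to 4032 bp. They made up 11.2% of all bases in regions, 1087195 bp. At the limit itself, the shortest members were at Trmt112 (2004 bp, 99.1 CPM per kb over the 6 mice) and Klf6 (2013 bp, 232). The longest regions left out were at Gm14486 (1995 bp, 86.4 CPM per kb) and Tef (1991 bp, 150). CPM are reads scaled to a common total per library, and levels are given per kb of region so that regions of different length can be compared.

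Long regions held 16.2%, 15.1% and 12.9% of the CPM of the 3 control hearts and 14.8%, 16.2% and 13.6% of that of the 3 NR4A2 hearts. The groups overlapped, and their means were 14.7% ± 1.66 and 14.9% ± 1.3 (SD, n = 3 mice in each group throughout). The difference was 0.108 percentage points (exact permutation test over mice, two-sided, p = 1.0, where 0.10 is the smallest p that 3 against 3 allows). It turned to -0.798 points without control mouse 3 and to -0.0714 without the Myh6 region. Control mouse 3 had both the lowest share and the fewest reads in regions, 549700 against 637635 to 1035856 in the other libraries. The median long region held 170 to 340 reads per library, the lowest count was 43, and none had 0 reads. Log2(CPM + 1) over long regions correlated at 0.949 to 0.974 within the control group, at 0.938 to 0.972 within the NR4A2 group and at 0.852 to 0.911 between a control and an NR4A2 heart (Pearson, across 255 regions that share libraries and are not replicates).

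Signal in NR4A2 hearts was higher in 40 long regions and lower in 32, and 183 were not called. The call was a Benjamini-Hochberg adjusted p under 0.05 in limma over all 16884 regions, of which 14.7% were higher and 3.17% lower. The higher share among long regions, 15.7%, was near that background, while the lower share, 12.5%, was above it. Groups did not overlap in 38 of the 40 higher and 25 of the 32 lower regions, in 93 of all 255 long regions and in 5330 of all 16884 regions. The count of lower regions was 18 without NR4A2 mouse 3 and 21 without control mouse 1. These are 7.06% and 8.24% of long regions, and the lower share over all regions fell as well, to 1.60% and 2.39%. With no scaling for library depth, limma called 0 higher and 2 lower, with 17 and 10 at an unadjusted p under 0.05, against 8.24% higher and 0.0829% lower over all regions. Differences in library depth then stay in the spread within groups, and the fold changes themselves moved little, with a median log2 fold change over long regions of -0.04 in place of -0.02 and 1.24 in place of 1.27 at Eno3. The sources used here do not say whether reads had been adjusted to the fly spike-in. With such an adjustment, the comparison without scaling would be the one relative to the spike-in, whereas the 40 higher and 32 lower calls are relative to the reads in all regions. In whole ventricle, a change in the number of cells with signal and a change of signal per cell cannot be told apart.

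Differences in long regions were smaller than over the whole table. Their log2 fold change (NR4A2 over control, on the log2(CPM + 1) scale) ranged from -1.46 to 1.27, against -2.95 to 4.90 over all regions, and passed 1 in either direction in 13 regions, 5.10% against 18.2% of all. The median was -0.02 in long regions and -0.06 in all. The median of the higher regions was 0.77 against 1.87 for all higher regions, and that of the lower ones was -0.63 against -0.76. Long regions were measured with less error, with a median standard error of 0.16 against 0.34 for all regions, and the smallest called change was 0.42. Higher long regions started low, with a median of 64.3 CPM per kb in control and 111 in NR4A2 hearts. Lower regions went from 122 to 76.7, and uncalled ones stood at 120 and 111. Across the 255 regions, control signal per kb and fold change correlated at -0.553 (Pearson, both on a log scale). Control values enter both measures, so part of this relation is built in. Length and fold change correlated at -0.0007.

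**Figure D1:**
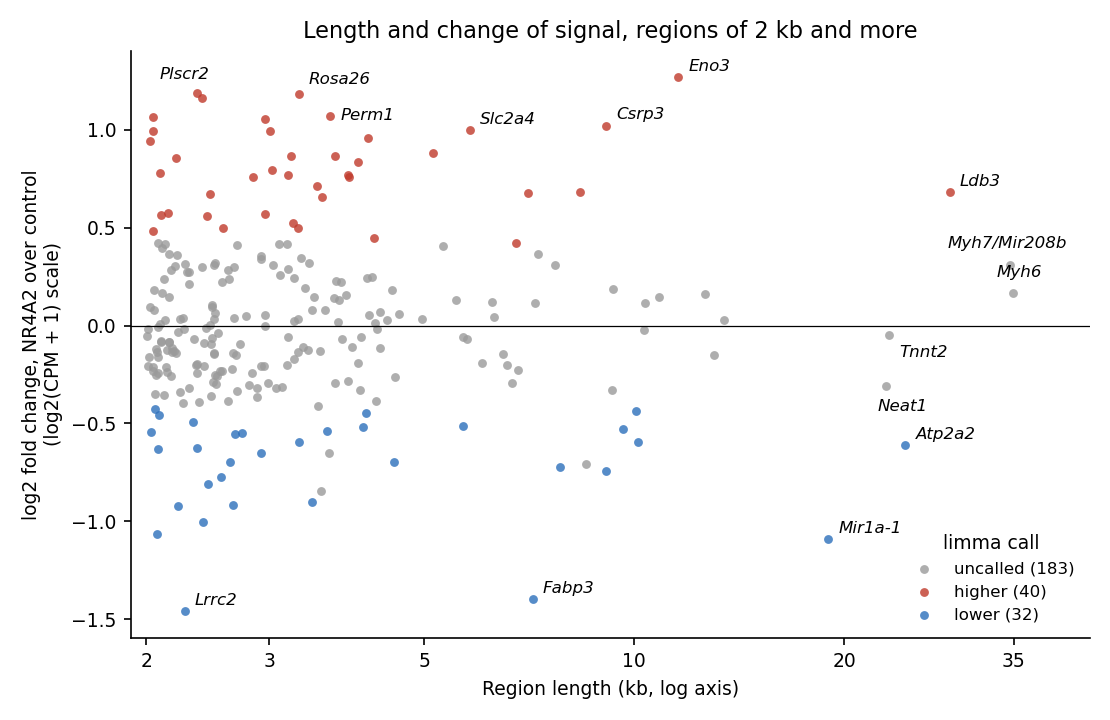
Each point is 1 of the 255 long regions, with its length in kb on a log axis and its log2 fold change in limma (NR4A2 over control, 3 mice each) on the vertical axis. The 40 higher (red) and 32 lower (blue) regions lie at all lengths, and the 2 longest, at Myh6 and Myh7, were not called (grey).

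The weakest long region in control hearts still had 37.2 CPM per kb, while over all regions the lowest was 3.58. Under 50 CPM per kb in control hearts were 12 long regions (4.71%) and 24.0% of all regions. The median per kb of the long regions was 116, 112 and 103 in the control and 104, 112 and 103 in the NR4A2 hearts (exact permutation test, two-sided, p = 0.50). In shorter regions it was 85.1, 87.6 and 82.6 against 87.7, 88.4 and 93.2 (exact permutation test, two-sided, p = 0.10). In the shorter regions the NR4A2 hearts were all above the controls by this median, though by little between the nearest mice, and at the smallest p the design allows. With the CPM of all shorter regions summed, the groups overlapped, at 98.9 ± 1.28 and 98.5 ± 1.58 CPM per kb (exact permutation test, two-sided, p = 0.50). The difference between long and shorter regions in these values was not tested.

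The mix of directions changed with length. Below 500 bp, 18% of 9931 regions were higher and 1.39% lower. From 1000 to under 2000 bp these shares were 8.26% and 9.16% of 1223 regions. Among long regions, 16 were higher and 17 lower of 137 at 2000 to under 3000 bp, 16 and 6 of 74 at 3000 to under 5000 bp, 6 and 5 of 28 at 5000 to under 10000 bp, and 2 and 4 of the 16 of at least 10000 bp. The median standard error fell from 0.43 below 500 bp to 0.14 in the longest class and the median reads per library rose from 18.5 to 1943, so smaller changes pass the threshold in longer regions.

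**Figure D2:**
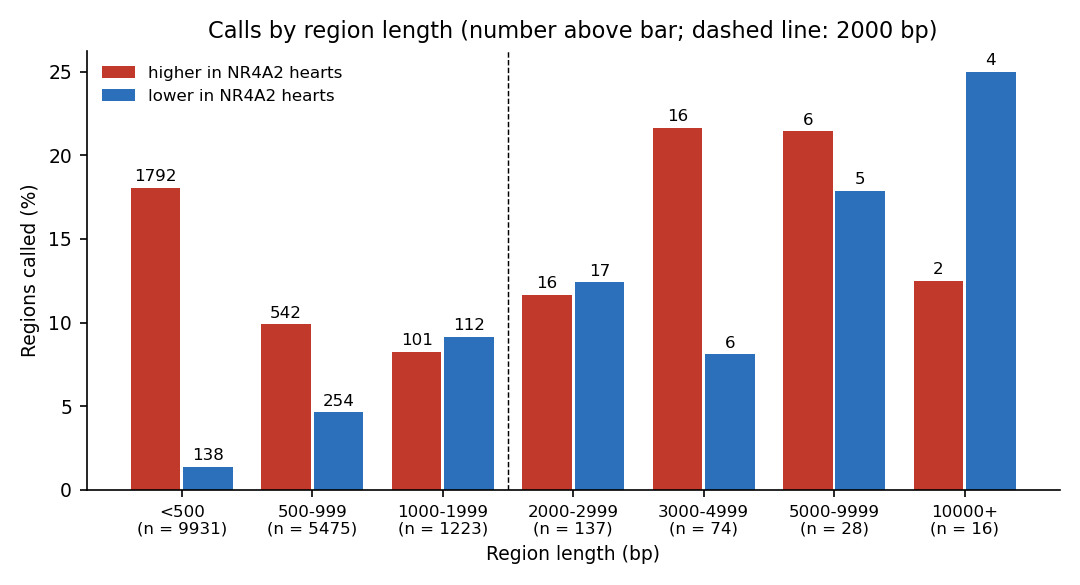
Bars give the percentage of regions in each length class (bp) called higher (red) or lower (blue) in NR4A2 hearts, with the number of regions above each bar. Right of the dashed line are the long regions, where lower calls are 8.11% to 25% of a class, the 25% being 4 of 16 regions. Left of it they are 1.39% below 500 bp and 9.16% at 1000 to under 2000 bp, within the range of the long classes.

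Long regions lay over genes. Of the 255, 229 (89.8%) overlapped a protein-coding gene, against 78.3% of shorter regions, and 13 overlapped no annotated gene. A whole protein-coding gene lay inside 21 long regions (8.24%) and inside 7 of the 16629 shorter ones. Another region lay within 10 kb of 232 long regions (91.0%), against 47.1% of the shorter ones. A listed transcription start lay inside 116 of 249 long regions on chromosomes with listed starts (46.6%), against 36.7% of shorter regions. Starts were listed for 27024 of the 49993 genes, so a region over the start of any other gene could count as having none. Length alone gives a region more chances to meet a gene or a start, and these shares were not tested.

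The presence of a listed start went with different calls in shorter regions than in long ones. Regions without a listed start include those on genes for which no start was listed. Long regions over a listed start were higher in 16 and lower in 13 of 116. Those without one were higher in 23 and lower in 19 of 133. Shorter regions over a listed start were higher in 1.07% and lower in 4.33%, and those without one were higher in 22.4% and lower in 2.31%. The difference between long and short regions was not tested. Shorter regions within 10 kb of a higher long region were higher in 24 (18.3%) and lower in 1 of 131, against 14.6% and 3.03% of all shorter regions. Around lower long regions 1 was higher and 11 (16.2%) were lower of 68, and around uncalled ones 23 and 10 of 517.

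The 2 longest regions lay over the myosin heavy chain genes of the sarcomere. The first (chromosome 14, 54936655 to 54971572, 34918 bp, GRCm38) covered all of Myh6, the alpha myosin heavy chain of adult mouse ventricle, and was also the strongest per kb. It had 643, 538 and 408 CPM per kb in control and 574, 650 and 533 in NR4A2 hearts, with overlapping groups (log2 fold change 0.16 ± 0.14 SE, adjusted p = 0.494). This single region held 1.43% to 2.26% of the CPM of each heart. Next to it, a region of 34581 bp (54973906 to 55008486) ran over Myh7, the beta myosin heavy chain, with Mir208b and Gm31251, at 138 ± 19.5 and 171 ± 25.8 CPM per kb (0.31 ± 0.14, adjusted p = 0.123).

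Of the other 6 among the 8 longest, 1 was higher and 2 were lower. At Ldb3, a Z-disc protein (28336 bp, chromosome 14, 34562122 to 34590457), signal was 127, 97.1 and 84.2 CPM per kb in control and 148, 183 and 159 in NR4A2 hearts. All NR4A2 hearts were above all controls (log2 fold change 0.68 ± 0.14, adjusted p = 0.000163). At Tnnt2, cardiac troponin T (23181 bp), it was 133 ± 28.7 and 129 ± 27.1 (-0.05 ± 0.15, adjusted p = 0.877). Neat1, the long noncoding RNA that scaffolds paraspeckles (22945 bp), had 178 ± 27.3 and 144 ± 27.0 (-0.31 ± 0.14, adjusted p = 0.128). Myl2, the ventricular regulatory light chain (13454 bp), had 205 ± 38.3 and 206 ± 6.97 (0.03 ± 0.14, adjusted p = 0.918). These 3 did not pass the test, and their groups overlapped.

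The region at Mir1a-1hg, which hosts miR-1a-1 and miR-133a-2, microRNAs of heart and skeletal muscle (chromosome 2, 180385428 to 180404396, 18969 bp), fell. It had 222, 201 and 154 CPM per kb in control hearts and 103, 120 and 57.6 in NR4A2 hearts. The groups did not overlap, and NR4A2 mouse 3 was lowest (log2 fold change -1.09 ± 0.25, adjusted p = 0.0109). Without control mouse 3 the adjusted p was 0.109.

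Of 4 other regions among the strongest per kb, 1 was called. Actc1, cardiac alpha-actin (8371 bp, chromosome 2, 114045108 to 114053478), rose from 205, 226 and 136 to 365, 300 and 237 CPM per kb. Its groups did not overlap (0.68 ± 0.16, adjusted p = 0.00137; 0.0534 without NR4A2 mouse 1). The region around Pln, the inhibitor of the calcium pump, inside Cep85l, had 231 ± 63.1 and 254 ± 41.9. Klf6, a zinc-finger transcription factor, had 235 ± 43.7 and 229 ± 8.35. Txnip, which restrains glucose uptake, with Gm15441, had 249 ± 108 and 207 ± 41.0, and its groups, like those at Pln and Klf6, overlapped.

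The largest gain was at Eno3, the muscle form of the glycolytic enzyme enolase, in a region that also reaches Pfn1 and Spag7 (11547 bp, chromosome 11, 70653609 to 70665155). It had 62.1, 68.1 and 73.4 CPM per kb in control and 158, 158 and 174 in NR4A2 hearts. The groups were far apart relative to their spread (log2 fold change 1.27 ± 0.14, adjusted p = 2.29e-11). At Gt(ROSA)26Sor, the locus that received the knock-in (3304 bp, chromosome 6, 113072670 to 113075973), signal rose from 33.5, 38.3 and 44.4 to 96.5, 91.6 and 76.4 CPM per kb (1.18 ± 0.17, adjusted p = 1.01e-07). At Perm1, a regulator of mitochondrial genes in muscle (3664 bp, chromosome 4, 156215460 to 156219123), it rose from 49.2, 52.1 and 48.4 to 96.4, 102 and 119 (1.07 ± 0.16, adjusted p = 1.75e-07). In both, every NR4A2 heart was above every control. At Gt(ROSA)26Sor the Nr4a2-icTg mice carry the knock-in itself, and the effect of that insertion on signal there was not tested.

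Other large gains were at genes of varied function. Plscr2, of the phospholipid scramblase family, went from 51.1 ± 14.3 to 115 ± 20 CPM per kb (1.19 ± 0.18, adjusted p = 3.66e-07). Ppip5k2, an inositol pyrophosphate kinase, went from 56.1 ± 5.52 to 126 ± 6.22 (1.16 ± 0.17, adjusted p = 8.79e-08). The largest gains also took in a region 941 bp from Ckmt2, the mitochondrial creatine kinase of striated muscle (42.9 ± 5.94 to 90.1 ± 8.89), one within Ldb3 (37.2 ± 3.18 to 78.3 ± 12.6) and one at Csrp3, the muscle LIM protein (65.0 ± 15.2 to 130 ± 13.3). In each of these 5 the groups did not overlap.

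**Figure D3:**
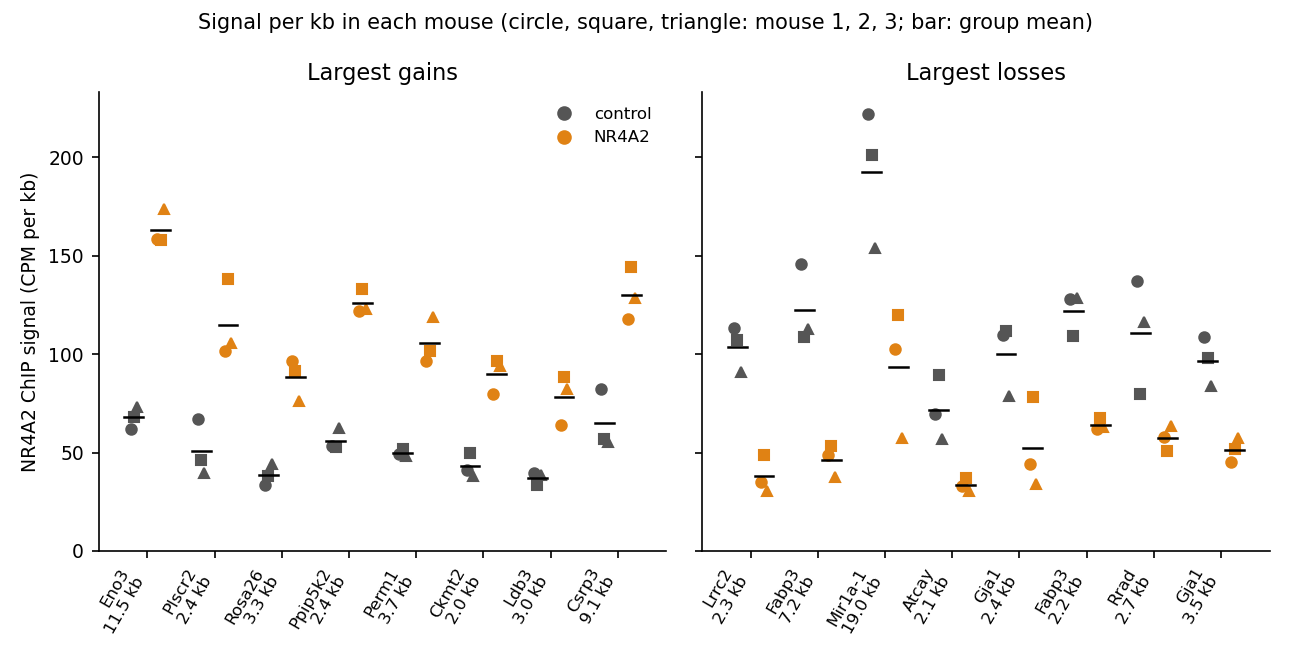
Signal in CPM per kb in each mouse for the 8 largest gains (left) and 8 largest losses (right) among long regions, with control hearts in grey, NR4A2 hearts in orange and bars at group means. The groups are apart in all 16 regions, and control means are 71.9 to 192 for the losses against 37.2 to 67.9 for the gains. The regions were chosen by call and fold change in these same mice, so both traits are in part built in.

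The largest loss was at Lrrc2, a leucine-rich repeat protein, in a region within the gene (2268 bp, chromosome 9, 110953326 to 110955593). It had 113, 107 and 91.0 CPM per kb in control and 34.9, 48.6 and 30.6 in NR4A2 hearts (log2 fold change -1.46 ± 0.19, adjusted p = 4.89e-09). Every NR4A2 heart was below every control. Fabp3, which carries fatty acids inside heart muscle cells, had 98.3% of its span in 2 long regions, and both fell. The region of 7153 bp (chromosome 4, 130309965 to 130317117) had 146, 109 and 113 against 48.9, 53.1 and 37.4 CPM per kb. The region of 2222 bp over its start (130307630 to 130309851) had 128, 109 and 129 against 61.9, 67.4 and 63.0 (-0.92 ± 0.17, adjusted p = 1.82e-05). Both showed groups that did not overlap.

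Losses of similar size were at Atcay (2073 bp, 71.9 ± 16.3 to 33.6 ± 3.44 CPM per kb, log2 fold change -1.07 ± 0.21, adjusted p = 4.89e-05) and at Rrad, a small GTPase that inhibits L-type calcium channels, in a region shared with Gm51588 (2663 bp, 111 ± 29.0 to 57.5 ± 6.30, -0.91 ± 0.17, adjusted p = 3.4e-05). The second Atcay region, of 7819 bp, reaches Nmrk2, a kinase of NAD synthesis that is induced in stressed heart, and fell from 155 ± 25.5 to 93.3 ± 9.26 (-0.72 ± 0.15, adjusted p = 8.39e-05). A large mean difference did not always pass. Plin4, a lipid droplet coat protein, had a log2 fold change of -0.85 (adjusted p = 0.328) with 81.0, 114 and 40.4 CPM per kb in the NR4A2 hearts. Plin4 was chosen after its values were seen, and its groups overlapped.

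Of the 9246 protein-coding genes with a region, 210 (2.27%) had a long one, and 30 had at least 2. In limma, no gene among the 30 had long regions called in both directions, 4 had all of theirs lower, 1 had all of its own higher and 15 had none called. Atp2a2, which pumps calcium back into the sarcoplasmic reticulum, had 95.7% of its span in 5 long regions, and all 5 were lower, by log2 fold changes of -0.54 to -0.74. Summed over the 5, signal was 6481 ± 1247 CPM in control and 4214 ± 975 in NR4A2 hearts. The longest, of 24491 bp (chromosome 5, 122478997 to 122503487), had 153, 141 and 112 CPM per kb in control and 88.1, 105 and 73.9 in NR4A2 hearts. It was the only 1 of the 5 whose groups did not overlap (-0.61 ± 0.14, adjusted p = 0.000756), and it stayed called whichever mouse was left out (largest adjusted p 0.0475). The other 4 each lost the call without NR4A2 mouse 3, and DESeq2 called 2 of the 5.

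Gja1, the main connexin of ventricular gap junctions, had 2 long regions over its span and 1 that began 249 bp outside it, and all 3 were lower. From one end of the gene to the other, they went from 148 ± 26.3 to 90.6 ± 10.7, from 96.8 ± 12.4 to 51.5 ± 6.01 and from 100 ± 18.5 to 52.3 ± 23.3 CPM per kb. The log2 fold changes were -0.70 ± 0.16, -0.90 ± 0.16 and -1.0 ± 0.22, with adjusted p = 0.000525, 1.35e-05 and 0.000939. In all 3 the groups did not overlap. Csrp3 was the gene whose long regions were all higher, with 2.

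Ldb3 had 4 long regions over 63.3% of its span, of which 3 were higher (0.68 to 1.06) and the other had a log2 fold change of 0.39 (adjusted p = 0.141). Their sum was 3565 ± 651 CPM in control and 5681 ± 586 in NR4A2 hearts. Fhl2, a LIM-domain protein of the Z-disc, had 12 long regions over 71.8% of its span. None was called by limma, edgeR or DESeq2, and 1 passed an unadjusted p under 0.05 in limma. All 12 log2 fold changes were above 0, from 0.06 to 0.42, and the summed signal was 5030 ± 939 and 5701 ± 835 CPM, with overlapping groups. Titin (Ttn), the giant spring of the sarcomere, had the most long regions, 16, of which 3 were higher (edgeR and DESeq2 each called 1) and 0 lower in any of these tests.

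**Figure D4:**
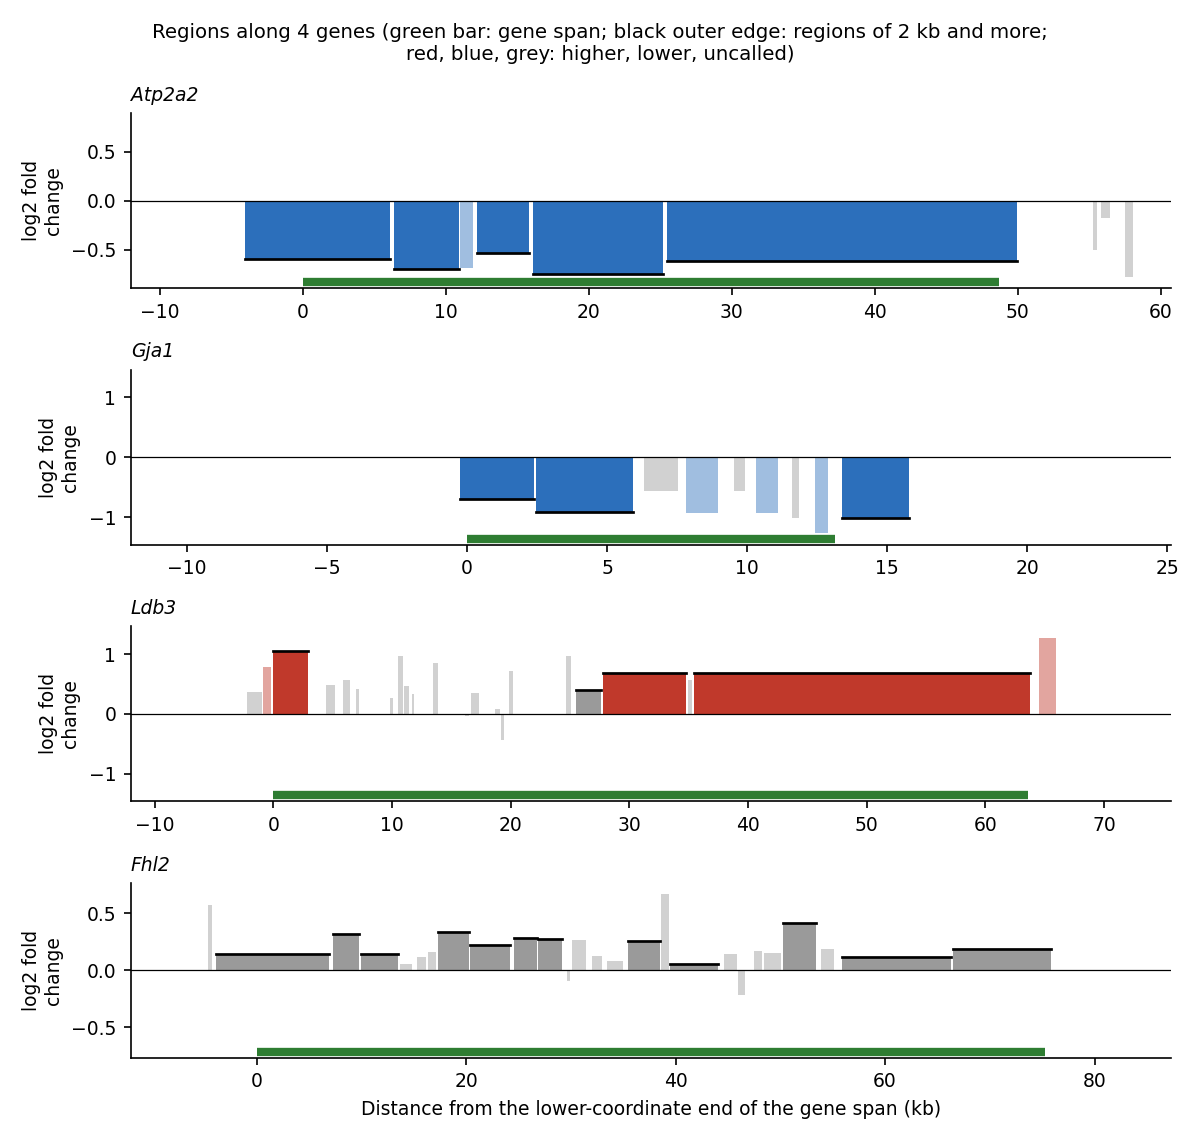
Each bar is a region at Atp2a2, Gja1, Ldb3 or Fhl2, drawn to scale along the gene (kb from the lower-coordinate end of its span, green), with log2 fold change as its height and a black outer edge on long regions. All long regions are lower at Atp2a2 and Gja1, 3 of 4 are higher at Ldb3 and none is called at Fhl2.

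Long regions were grouped by the genes they overlap, with 14.7% higher and 3.17% lower over all regions for comparison. Contractile filament genes were the functional group with the largest share of members bearing a long region, 10 of the 14 with any region. Their 30 long regions were higher in 5 (at Ttn, Actc1 and Myl2) and lower in 2, at Tpm1, tropomyosin, and Myl3, the ventricular essential light chain. With edgeR 3 and with DESeq2 2 were higher, and 2 were lower with each. The Myl2 region called higher here (chromosome 5, from 122092669) is not the longer, uncalled Myl2 region described above (from 122100201). Its adjusted p was 0.0576 in DESeq2. The Myl3 region of 2454 bp went from 137, 79.3 and 84.8 to 53.7, 65.5 and 48.3 CPM per kb (log2 fold change -0.81 ± 0.18, adjusted p = 0.000493), with every NR4A2 heart below every control. Z-disc and M-band genes had a long region in 8 of 21, and 6 of 23 regions were higher (at Ldb3, Csrp3 and Actn2) and 1 lower. Leaving out single mice ended the calls at Tpm1 (control mouse 1, control mouse 2 or NR4A2 mouse 3), Myl2, Actn2 and 2 of the 3 Ttn regions (several mice each). The median log2 fold change was 0.23 for the filament and 0.28 for the Z-disc regions, against -0.06 over all regions. Ttn gave 16 of the 30 filament regions and Fhl2 12 of the 23 Z-disc and M-band regions, so each median leans on 1 gene.

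Calcium handling genes had 10 long regions at 4 of 16 genes, of which 6 were lower (5 at Atp2a2, 1 at Ryr2) and 2 higher. With edgeR 5 and with DESeq2 2 were lower, and 2 were higher with each. Both higher regions were at Trdn, triadin, which anchors the calcium release channel, and the one of 5151 bp went from 89.5, 66.5 and 50.6 to 102, 150 and 124 CPM per kb (0.88 ± 0.16, adjusted p = 3.67e-05). The groups did not overlap. At Ryr2, the calcium release channel itself, the lower call (-0.44 ± 0.16, adjusted p = 0.0389) was lost with edgeR (adjusted p = 0.0758) and with DESeq2 (adjusted p = 0.0966). It was also lost when control mouse 1, control mouse 2 or NR4A2 mouse 3 was left out (largest adjusted p 0.389). Of 5 regions at membrane and intercalated disc genes, the 2 at Gja1 were lower, and 2 were higher, of which 1 was at the potassium channel gene Kcnh2.

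Glucose and pyruvate genes had 7 long regions at 6 of 22 genes, of which 6 were higher and 0 lower. The same counts came from limma at an unadjusted p under 0.05, edgeR and DESeq2. These genes were Eno3 and the other glycolytic enzymes Pfkm (log2 fold change 0.80), Aldoa (0.76), Gapdh (0.76) and Pgam2 (0.84), with Slc2a4, the insulin-responsive glucose transporter, whose region also overlaps Ybx2 (1.00 ± 0.15, adjusted p = 1.53e-07). At Gapdh signal was 110, 112 and 105 CPM per kb in control and 166, 188 and 201 in NR4A2 hearts, and at Slc2a4 57.6, 59.4 and 62.9 against 125, 132 and 105. In the 6 regions every NR4A2 heart was above every control. The region that was not called lies mostly in Ppp4c and reaches Aldoa (0.29, adjusted p = 0.219). Fatty acid genes had 3 long regions, the 2 at Fabp3 being lower and the one at Lpl, lipoprotein lipase, uncalled (-0.20, adjusted p = 0.423). No fatty acid region was higher with limma, at an unadjusted p under 0.05, or with edgeR or DESeq2.

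Among genes of high-energy phosphate and oxygen supply, 1 of 3 long regions was higher and 2 were lower. Ckmt2 rose from 80.2, 62.8 and 51 to 115, 117 and 140 CPM per kb (0.96 ± 0.16, adjusted p = 1.9e-06). Mb, myoglobin, fell from 180, 174 and 137 to 116, 123 and 100.4 (-0.53 ± 0.14, adjusted p = 0.00367), with groups apart, and had an adjusted p of 0.0643 without NR4A2 mouse 3. Slc25a4, the mitochondrial ADP/ATP carrier, had 177 ± 25.5 and 131 ± 18.9, with overlapping groups (-0.44 ± 0.14, adjusted p = 0.0203, and 0.0666 in edgeR), a call that held only without control mouse 3 or NR4A2 mouse 2 among the fits with 1 mouse left out. The respiratory chain and citrate cycle, with 30 genes bearing a region, had a single long region, over parts of Baz2a and Atp5b (0.48 ± 0.17, adjusted p = 0.0334). The adjusted p was 0.0684 in edgeR, 0.14 in DESeq2 and up to 0.313 in limma without control mouse 3, NR4A2 mouse 1 or NR4A2 mouse 3.

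**Figure D5:**
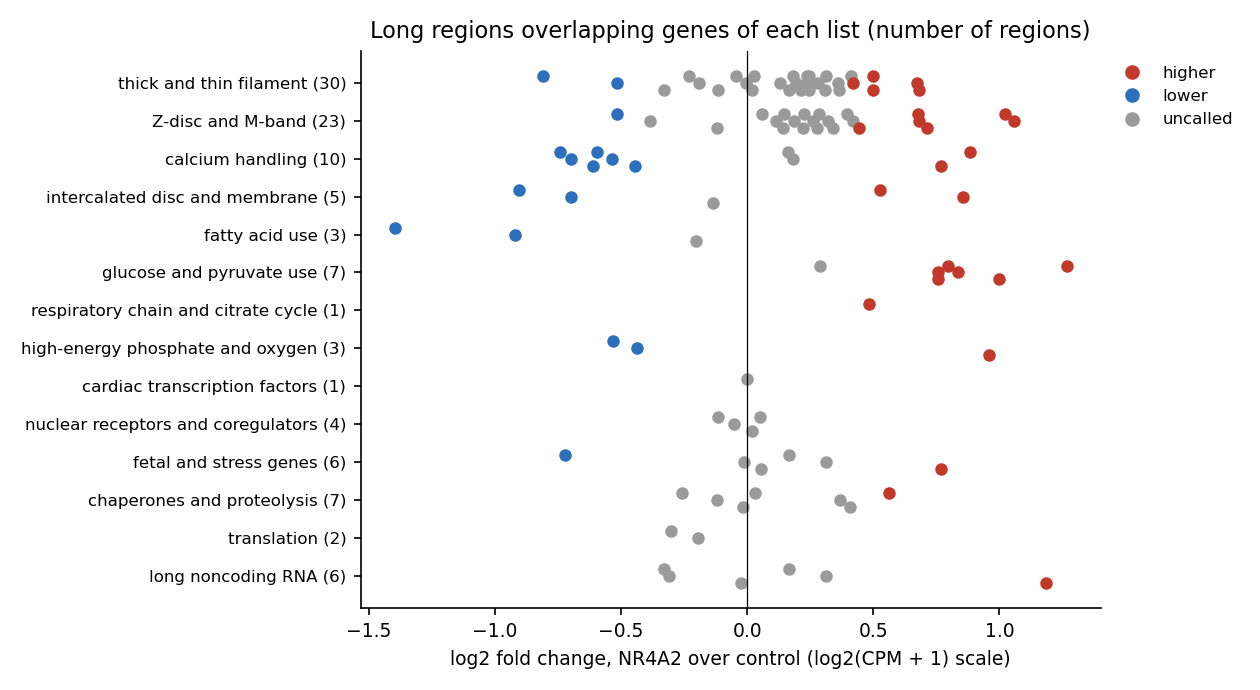
Each point is a long region placed at its log2 fold change (limma, NR4A2 over control) in the row of the gene group it overlaps, coloured by call, with the number of regions in brackets. Glucose and pyruvate regions are on the higher side (6 of 7 called). Of 10 calcium handling regions, 6 are lower, 5 of them at the single gene Atp2a2, and 2 are higher. DESeq2 called 2 of the 10 lower and 2 higher.

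Regulatory and housekeeping groups held few long regions and fewer calls. Of 18 cardiac transcription factor genes with a region, Gata6 alone had a long one, at 97.3 ± 13.3 and 96.8 ± 4.96 CPM per kb (0.00 ± 0.16, adjusted p = 0.999). Nuclear receptor and coregulator genes had 4, with 0 called in limma (also at an unadjusted p under 0.05), edgeR or DESeq2. The longest, over Nr1d1, a clock repressor, and Thra, a thyroid hormone receptor, had 123 ± 20.8 and 113 ± 14.7. Translation genes had 2, with 0 called by the same tests, and Eef1a1 had 121 ± 9.51 and 98.4 ± 10.4 (adjusted p = 0.201). Fetal and stress genes had 6, of which 1 was higher, at Nppb, brain natriuretic peptide (0.77 ± 0.18, adjusted p = 0.00132), and 1 lower, at Nmrk2. Chaperone and proteolysis genes had 7, of which 1, at the small heat shock gene Hspb7, was higher (0.56 ± 0.18, adjusted p = 0.0156), and DESeq2 called 0. The Hspb7 call was lost without control mouse 3 or NR4A2 mouse 1. A list of 10 long noncoding RNA genes had 6, and Gt(ROSA)26Sor was the one called. Of all 25 long regions named for a long noncoding RNA gene, listed or not, 3 were higher and 4 lower, among them the Mir1a-1hg region.

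The label of heart muscle was checked against cell type markers. Of 9 cardiomyocyte markers with a region, 8 had a long one. Fibroblast, endothelial and smooth muscle markers had regions at 4, 5 and 3 genes and a long region at 0, and immune markers had no region. Some genes known from endothelium, chosen after their values were seen, did have long regions, none called in limma, edgeR or DESeq2. Egfl7, which hosts miR-126a, had 124, 143 and 102 CPM per kb in control and 104, 100.4 and 126 in NR4A2 hearts over 13032 bp, and Klf2, a shear-stress transcription factor, had 157, 137 and 115 against 151, 155 and 115. In both, the groups overlapped. The longest region with no gene in it, of 4329 bp near Cd36 (chromosome 5, 17775576 to 17779904), had 72.4 ± 21.7 and 75.2 ± 19 (0.07 ± 0.18, adjusted p = 0.84).

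The authors' deposited table gives its own call for each region, and of the 255 long regions it lists 25 as up, 15 as down and 215 as unchanged. Over all 16884 regions it lists 2521 as up, 329 as down and 14034 as unchanged. By these calls, the share listed as up was smaller among long regions than among all regions, and the share listed as down was larger. The cut-offs behind the authors' calls are not given here, so these shares are not like for like with those from limma. All 25 up and 14 of the 15 down were called in the same direction by limma here. Of the 215 unchanged, 182 were also uncalled by limma.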

How the data were processed

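NR4A2 ChIP-seq libraries of 6 mouse ventricles (3 control, 3 NR4A2) were compared. The submitters' processing notes name BWA and build GRCm38 (mm10). Peak caller, merging and counter: not given in the sources used here. Values per mouse are the authors' CPM. The same table holds a log2 fold change, a p-value and an FDR computed by the authors, per the file headers. All CPM values were whole multiples of 1 read (100% within 0.001 of a read), and the scaling factors left, 0.991 to 1.01, were those of TMM on the reads in regions. No spike-in factor enters, so a change common to all regions cannot be seen, and it is not known from the sources whether reads were adjusted to the spike-in earlier. Depth was 549700 to 1035856 reads in regions, and 1 read was worth 0.955 to 1.81 CPM.

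limma 3.58.1 (R 4.3.3; trend, robust, genotype only) was run on log2(CPM + 1) over 16884 regions, with Benjamini-Hochberg adjustment, after being tested on simulated data. Alternatives were edgeR 4.0.16 (quasi-likelihood) and DESeq2 1.42.0 on recovered reads, other pseudocounts, filters, scalings and length limits, a block and leaving out each mouse. Genes, starts and sequences are RefSeq, GRCm38.p6. The gene table gives spans without exons, and starts come from the promoter table. A region was named for the gene it overlaps most, else the nearest.

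Members and gene lists were chosen with earlier results of these data known. Regions named are the 8 longest, the 6 strongest per kb, the 8 largest gains and 8 largest losses, the longest without a gene and, per list, the longest and the one with the smallest adjusted p. Others belong to small counts or to genes with several long regions and were chosen after their values were seen. Each library is labelled with its own mouse, and p-values measure the spread between these mice. Some regions that the rule names are not reported here.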

Additional observations from a re-analysis of the deposited data

How the results depend on the processing

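Long regions called higher and lower numbered 40 and 32. Pseudocounts of 0.5 and 5 CPM gave 40 and 32, and 41 and 32. A minimum of 10 CPM gave 40 and 32, scaling to reads in shorter regions 40 and 31, edgeR 36 and 31, and DESeq2 33 and 25. Over all regions, the pseudocounts, the minimum and that scaling called 14.4% to 15.4% higher and 2.95% to 3.48% lower. With edgeR the shares were 15.0% and 3.22% of all regions, against 14.1% and 12.2% of long ones. With DESeq2 they were 12.9% and 1.49% of all, against 12.9% and 9.80% of long ones. Without scaling for depth the counts were 0 and 2. A limit of 1500 bp gave 72 and 58, and one of 3000 bp gave 24 and 15, which follows from more or fewer regions. Leaving out 1 mouse gave 33 to 40 higher and 18 to 39 lower long regions, against 9.34% to 13.8% higher and 1.60% to 2.69% lower over all regions. Of the calls, 29 of the 40 and 17 of the 32 were kept in all 6 such fits. The median log2 fold change of long regions was then -0.08 to 0.03. The difference in the share of CPM, 0.108 points, was -0.0967 at 1500 bp, -0.0714 without the longest region (an alternative chosen after seeing the data) and -0.798 to 0.826 when 1 mouse was left out. The cause was not tested. None of the 26 called regions among the 40 named by rule changed direction in any alternative. Among uncalled ones, Gata6 was -0.0102 with DESeq2 and -0.0234 without scaling, and Myl2 was -0.0042 with DESeq2. Leaving out 1 mouse turned the sign at Myh6 (-0.011 to 0.317), Gata6 (-0.0724 to 0.109), Tnnt2 (-0.219 to 0.139), Myl2 (-0.126 to 0.147), Cep85l with Pln (-0.0459 to 0.357), Klf6 (-0.105 to 0.129), Gm15441 with Txnip (-0.375 to 0.131) and near Cd36 (-0.137 to 0.291). The mouse numbers gave no clear pairing of the samples. Deviations of same-numbered mice correlated at -0.066, 0.061 and 0.033 over all regions and at -0.162, 0.131 and 0.302 over long ones. Over long regions, mice of different number correlated at -0.391 to 0.370. With the replicate block the counts were 43 and 38, against 15.0% higher and 3.44% lower over all regions.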
